A study of Homo sapiens with 8 samples.

Results

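Chromatin opening in the first day after SMARCB1 was switched back on was read from a pair of ATAC-seq peak lists of G401 cells, one taken as day 0 and one of day 1. The lists held 80744 and 109876 peaks, together 190620 of the 411408 peaks deposited over 4 days. A day 1 peak was called kept when it shared at least 1 bp with a day 0 peak and gained when it shared none. A day 0 peak that shared no base with a day 1 peak was called lost. Of the day 1 peaks 40217 were gained, and of the day 0 peaks 10494 were lost. The lists of days 3 and 7 (117606 and 103182 peaks) were used only to see whether a gain was still called later.

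G401 is an established human cell line, derived from a kidney rhabdoid tumour. The day 0 cells carry the label SMARCB1 -/-, and the day 1, 3 and 7 cells the label SMARCB1 +/+, after that many days in 1 µg/ml doxycycline, the drug that turns the transgene on. The stable inducible line was grown in DMEM with Tet-free serum, and 100000 cells were tagged per replicate, with 2 replicates a day and 8 samples in all. All induced groups received doxycycline and SMARCB1 together, so the drug and the protein cannot be told apart, and the labels do not say whether the inducible line is 1 clone or whether replicates were separate cultures. The file names no day for the list taken as day 0, which was assigned by elimination, and every statement on gains and losses rests on that.

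SWI/SNF (BAF) complexes use ATP to slide or evict nucleosomes, which exposes DNA to transcription factors at enhancers and promoters. SMARCB1 is a core subunit of these complexes, and its loss is the defining lesion of rhabdoid tumours. AP1, the JUN and FOS family of factors named in the title of the study, binds many enhancers and can recruit SWI/SNF to closed sites. ATAC-seq marks open DNA with a transposase that cuts where nucleosomes do not block it. A taller peak in a bulk sample can mean more cells with an open site or a more open site per cell, and the data cannot tell these apart.

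Calls come as 1 set per day, so the differences below carry no error between replicates and no test was possible. The intervals in parentheses are 95% intervals. For shares they treat peaks as independent draws, and for summit ratios they cover the counting error of reads only, which repeat copies of 1 molecule would make too narrow. The genome-wide background was similar, with 6.34 reads per position on day 0 and 6.04 on day 1. The number of reads behind each list was not at hand, so depth itself was not compared. The median peak had 57.0 reads at its summit on day 0 and 51.0 on day 1, with minima of 18 and 16. Fold is the authors' ratio of a summit to its local background, and a scaled summit is the summit reads over the genome-wide background of the list. Peak positions are 1-based hg19, and the genes at them, SMARCB1 itself and cell markers among them, were not analysed for want of an hg19 annotation.

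Gains made up 36.6% (36.3 to 36.9) of the day 1 list and covered 16.3 Mb, against 49.3 Mb under kept day 1 peaks. Losses made up 13.0% (12.8 to 13.2) of the day 0 list and covered 2.96 Mb. List length bears on both shares. When the day 1 list was cut to its 80744 best peaks by -log10 p, 24.3% of them were gained, or 19653 peaks, and 23.1% of day 0 peaks had no counterpart, shares that must lie close together in lists of equal length.

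Gains were mostly low and narrow, with a thin tail of tall ones. The median gain had 33.0 reads at its summit, a fold of 3.27 and a width of 335 bp, while the median kept day 1 peak had 70.0 reads, a fold of 4.50 and 577 bp. The share gained climbed with every step down the day 1 list, which was ranked by -log10 p and split into 10 equal groups. In the strongest group it was 1.86% (1.61 to 2.13), in the fifth 27.8% (26.9 to 28.6) and in the weakest 77.5% (76.7 to 78.3). A -log10 q below 2.44, the smallest of the day 0 list, was found at 10 gains. A q-value depends on the whole list it comes from, so this does not put the lists on a common limit. Scaled summits of 7665 gains (19.1%, 18.7 to 19.4) were at or above the median of all day 0 peaks.

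**Figure D1:**
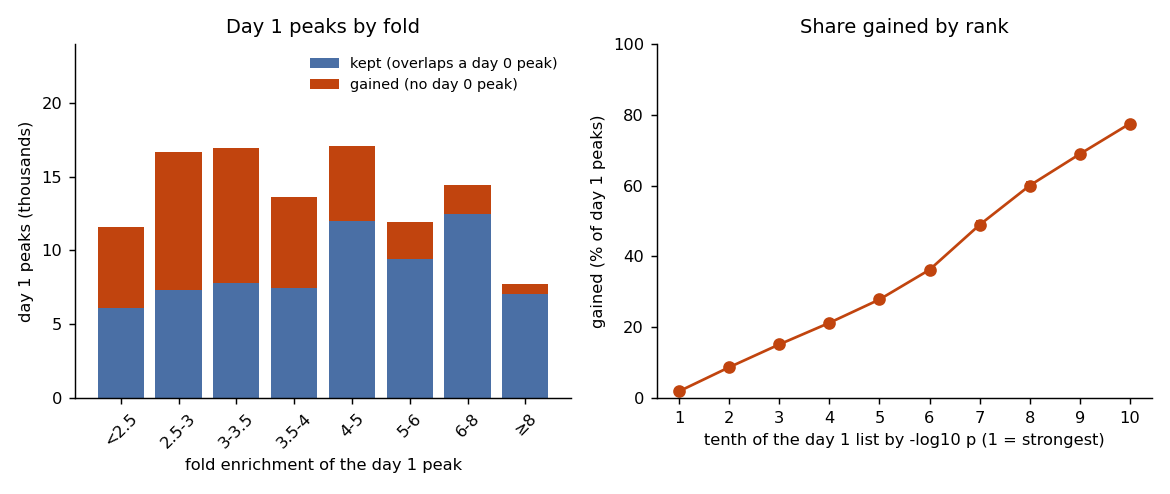
Left, the number of day 1 peaks by fold class, split into kept and gained; right, the percent gained in 10 equal groups of the day 1 list ranked by -log10 p, with 95% binomial intervals that are smaller than the points. The share gained goes from 1.86% in the strongest group to 77.5% in the weakest.

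Of peaks with a fold of at least 6, called strong here, 2558 of 22130 day 1 peaks were gained, or 11.6% (11.1 to 12.0), and 0 of 16548 day 0 peaks were lost. The limit that 3 counts would set is a share of 0.0181%, and the upper bound of the exact interval is 0.0223%. With a fold limit of 4 the gained share was 19.8%, or 10105 peaks. The 10 gains of highest fold lay 7.40 to 165 kb from the nearest day 0 peak. The gain with the highest fold, 13.5, lay on chromosome 6, 101040620 to 101041310, with 96 reads at its summit and the nearest day 0 peak 64.3 kb away. Also on chromosome 6, 88153894 to 88154847 had a fold of 13.2 and 140 reads, 7.40 kb from a day 0 peak. Fold divides by the local background, here 1.02 and 1.60 times the genome-wide value, so the former site, with fewer reads, ranked above the latter. Whether the reads of a peak itself enter its local background is not stated, so a high local background need not come from the surroundings.

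Chromosomes 3 and 4 held 5 of the other 8 sites in the top 10. On chromosome 3 they were 174775170 to 174775858, with a fold of 13.0 and 95 reads, and 28118883 to 28119656, with a fold of 13.0 and 131 reads. Both lay over 100 kb from any day 0 peak, at 165 and 134 kb. On chromosome 4 the gains at 67472577 to 67473145 and 67572570 to 67573263 had folds of 12.4 and 12.2 with 100 and 105 reads, and 73001863 to 73002655 had 12.1 with 92 reads. The last 3 of the 10 were chromosome 15, 36562832 to 36563798, with 13.0 and 116 reads, chromosome 7, 94249973 to 94250854, with 12.5 and 122 reads, and chromosome 8, 99865435 to 99866130, with 12.0 and 117 reads. All 10 were called again on days 3 and 7, and 9 of them stood alone, with no other gain within 10 kb.

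Lost peaks were weak, with a median of 29.0 reads, a fold of 2.89 and a width of 258 bp. Among day 0 peaks with a fold under 3, 27.1% (26.5 to 27.7) were lost, against 2.09% (1.90 to 2.30) of those with a fold of 4 to 6. The lost peak with the highest fold was chromosome 5, 73352618 to 73352983, at 5.73 with 44 reads, and a gain lay 2.04 kb from it. The next 4 all had a fold of 5.72 and 41 reads, on chromosome 6, 81435051 to 81435575, chromosome 7, 104189334 to 104189657 and 149074474 to 149074862, and chromosome 16, 21930683 to 21931046. Replacement of a lost peak by a close gain was uncommon: 8.23% (7.71 to 8.78) of lost peaks had a gain within 1 kb and 2.13% (1.86 to 2.42) within 200 bp. A gain within 1 kb was still more frequent at lost peaks, 864 of 10494, than over all day 0 peaks, 4635 of 80744.

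Few peaks lay at the border of the overlap rule. Day 1 peaks that shared under 50 bp with day 0 numbered 183, with a median fold of 2.78 and a width of 269 bp, and gains under 50 bp from a day 0 peak numbered 128, with a fold of 2.78 and 286 bp. Overlap was mostly simple. In 66657 cases 1 day 0 peak met 1 day 1 peak, which accounts for 94.9% of the kept day 0 peaks. A further 1408 day 1 peaks joined 2 or more day 0 peaks, with a median width of 1235 bp and a median bridged gap of 121 bp. The opposite, 1 day 0 peak over 2 or more day 1 peaks, occurred 837 times, with a median gap of 97.0 bp.

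At the 66657 one-to-one pairs the summit stayed close to where it had been. The median distance between the summits of day 0 and day 1 was 33.0 bp, 40.6% (40.2 to 41.0) were within 20 bp and 95.4% (95.3 to 95.6) within 200 bp. The shift had no preferred direction, with 48.1% towards higher and 47.9% towards lower coordinates. It was smaller at strong peaks: the median was 50 bp at 10065 pairs with a fold under 3 on both days, 16 bp at 14717 pairs with a fold of at least 6 and 12.0 bp at 887 pairs with a fold of at least 10.

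The distances did not fall off evenly. Per 20 bp step the pairs numbered 26443, 9311 and 5326 up to 59 bp, then came back to 5530 and 5900 between 60 and 99 bp before falling to 4576 and 2933. The same return was seen at strong pairs, with 885 at 40 to 59 bp, 844 at 60 to 79 bp, 1196 at 80 to 99 bp and 950 in the step from 100 bp. Peaks with a day 0 width under 450 bp had it too, with 2648 and then 3024 pairs at 40 to 59 bp and 80 to 99 bp. The day 1 summit thus lay most often on the day 0 summit, with a second, smaller rise at about 60 to 120 bp. It was seen in both directions, with 2654 and 2949 pairs at 40 to 59 bp and 80 to 99 bp towards higher coordinates and 2672 and 2951 towards lower ones. How reads were extended or shifted before calling is not stated in the labels, which limits what a shift of this size means.

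A few strong pairs moved much further. At chromosome 1, the day 0 peak at 54547191 to 54547754, with 89 reads, became a day 1 peak of 1850 bp at 54545883 to 54547732, with 126 reads and a summit 1220 bp away. This was both the largest shift and the largest widening among strong pairs, 3.28-fold. The next 4 shifts, of 852 to 953 bp, were within peaks of nearly constant outline, such as chromosome 1, 143743195 to 143744865, which moved 953 bp at 139 and 132 reads. In the others, on chromosomes 7, 14 and 5, the summit moved 877, 874 and 852 bp and the width ratio was 0.988 to 1.07, so the highest point passed from one part of a broad peak to another.

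**Figure D2:**
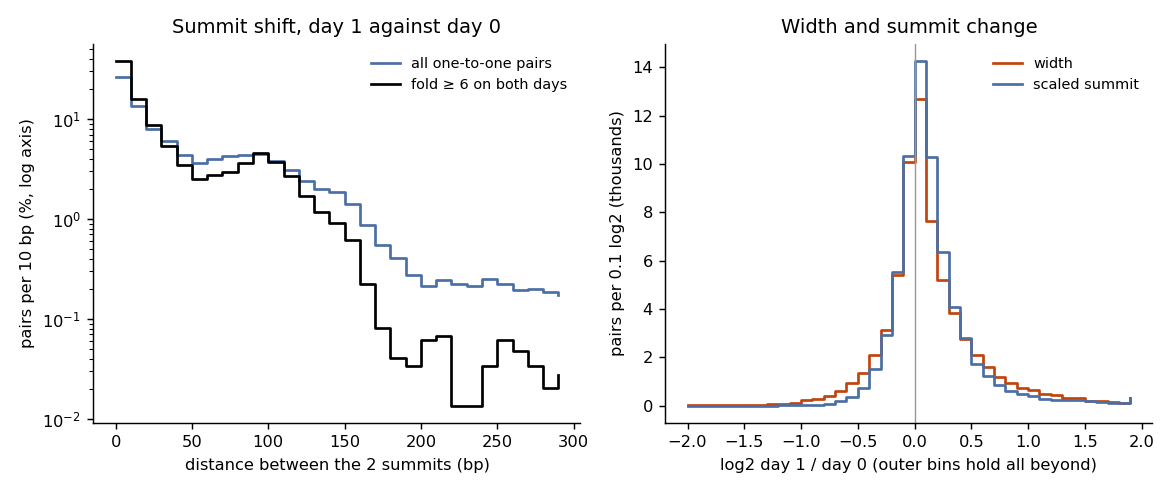
Left, the distance in bp between day 0 and day 1 summits of one-to-one pairs, as percent of pairs per 10 bp on a log axis, for all 66657 pairs and for the 14717 with a fold of at least 6 on both days; right, the log2 ratio of day 1 to day 0 for width and scaled summit. Both shift curves have a second rise near 100 bp, and both ratios lean slightly to the right of 0, the summit by the 0.07 that the scaling gives every pair.

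Kept peaks were slightly wider on day 1, and how many were taller depended on the scaling. The median log2 change was 0.06 in width (quartiles -0.07 and 0.29) and 0.07 in scaled summit (quartiles -0.04 and 0.25). Division by the lower day 1 background gives every pair 0.07 of that summit change. In reads without scaling the median change was 0.00, and 49.8% of pairs had more reads on day 1 and 46.1% fewer, while 67.4% were higher in scaled summits and 64.0% in fold. Some 62.2% of pairs were wider, and the edges moved outward by a median of 11 and 10 bp. At least 2-fold widening was found at 3105 pairs, 4.66% of all, and at least 2-fold narrowing at 387, or 0.581%. Summits were at least 2-fold higher at 2248 pairs, 3.37%, and at least 2-fold lower at 10, 0.0150%. Without scaling these counts were 2010 (3.02%) and 18 (0.0270%). By fold, which divides by the local background, the counts were 603 (0.905%) and 13 (0.0195%).

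Widening was concentrated in peaks that had been narrow. Of 10490 pairs with a day 0 width under 300 bp, 17.9% (17.2 to 18.7) at least doubled in width, and the median width of that class went from 252 to 329 bp. In the class from 450 to under 700 bp 1.41% (1.24 to 1.60) doubled, and of 11974 pairs of 1000 bp or more 0. The minimum width of a call is 200 bp, so the narrowest class had little room to shrink. The classes were cut on day 0 width, the denominator of the ratio, so scatter in that width also adds to this order, and its part was not tested. Width and height moved together, with a Pearson r of 0.58 between the log2 changes across 66657 pairs, a description only, since both come from the same reads. Of the pairs with doubled summits 54.9% (52.8 to 57.0) doubled in width, and of all other pairs 2.90% (2.78 to 3.04).

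The pairs that rose most had been near the calling limit on day 0. At chromosome 4 the peak at 4812256 to 4812483 went from 20 to 155 reads and from 228 to 1280 bp, a scaled ratio of 8.13 (5.09 to 13.7), while its summit moved by 7 bp. Chromosome 5, 125004625 to 125005070, went from 24 to 176 reads, a ratio of 7.70 (5.01 to 12.3), with a summit 120 bp away. The following pairs were chromosome 14, 55976779 to 55977128, from 20 to 139 reads, chromosome 9, 123493136 to 123493614, from 29 to 193, and chromosome 4, 83696083 to 83696289, from 26 to 163. By the authors' fold the 5 ratios were 2.40 to 4.06, since the local background at these sites was 1.95 to 3.22 times that of day 0. The 5 pairs were picked from 66657 for their ratio, so the intervals do not allow for the choice.

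The pairs that fell most shrank in width as well. Chromosome 10, 52564691 to 52565538, went from 138 to 57 reads, a ratio of 0.434 (0.313 to 0.594), and from 848 to 329 bp. Chromosome 14, 57628414 to 57629259, went from 106 to 47 reads (0.465, 0.323 to 0.662) and from 846 to 215 bp. The other 3, on chromosomes 6 and 1, had ratios of 0.436 to 0.473, and by the authors' fold all 5 were at 0.536 to 0.698 of day 0. These 5 too were picked from all one-to-one pairs for their ratio, so their intervals do not allow for the choice. Among strong pairs, chosen for a fold of at least 6 on both days, the smallest width ratio was at chromosome X, 71265107 to 71266226, where the width went from 1120 to 549 bp while the summit held 54 and 53 reads. In the 5 strong pairs of smallest width ratio, 0.490 to 0.551, the scaled summit ratios were 0.881 to 1.37 and all their intervals included 1, though a large loss of height would have kept a pair out of this set.

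Gains lay a little further from day 0 peaks than kept peaks did from their neighbours. The median gap from a gain to the nearest day 0 peak was 7607 bp (quartiles 2919 and 17836), and the median gap from a kept day 1 peak to the nearest other day 0 peak was 5780 bp (quartiles 1902 and 13190). Within 1 kb lay 11.1% (10.8 to 11.4) of gains, and 3121 gains, or 7.76% (7.50 to 8.03), were 50 kb or more away. The 2558 strong gains had a median gap of 18262 bp, and 1.72% (1.25 to 2.30) of them were within 1 kb.

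How strength varied with the gap depended on the scale. By fold, the share of strong gains was 0.443% (0.121 to 1.13) under 200 bp, 2.29% at 1 to 5 kb, 9.80% (9.30 to 10.3) at 10 to 50 kb and 15.2% (13.2 to 17.4) at 100 kb or more. By a scaled summit of at least 10 the nearer classes had the higher shares, with a drop at 5 kb. The share was 21.6% (19 to 24.5) under 200 bp, 27.0% (25.6 to 28.5) at 200 bp to 1 kb and 24.8% (23.9 to 25.6) at 1 to 5 kb. It was 8.91% (8.34 to 9.52) at 5 to 10 kb, 8.93% (8.45 to 9.42) at 10 to 50 kb and 6.56% (5.21 to 8.13) at 100 kb or more. The local background of gains moved with this, at a median of 2.31 times the genome-wide value under 200 bp, 2.16 at 1 to 5 kb, 1.37 at 5 to 10 kb and 1.00 at 100 kb or more. Gains beside day 0 peaks thus had taller summits in reads, with class medians of 40 to 44 within 5 kb and 27 to 31 beyond it. A higher background also raises the number of reads a call needs, and the lowest summits, at the 5th percentile, were 22 to 23 reads within 5 kb and 20 beyond. The part of the background in either order was not tested.

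**Figure D3:**
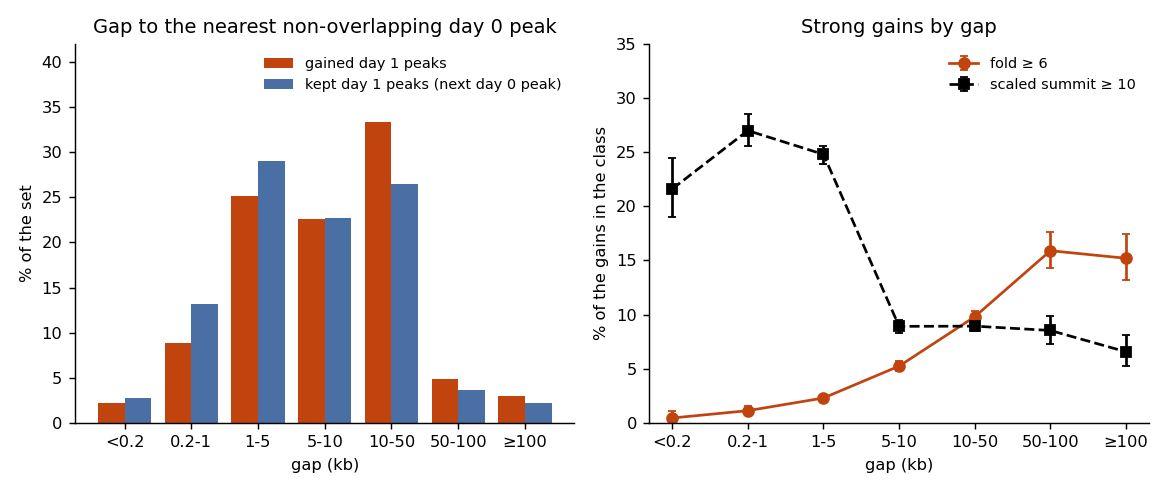
Left, the share of gained and of kept day 1 peaks by the gap in kb to the nearest day 0 peak that they do not overlap; right, the share of gains in each gap class that are strong by fold (at least 6) or by scaled summit (at least 10), with 95% binomial intervals. The 2 measures of strength differ in direction between near and far gains. By fold the share goes from 0.443% in the nearest class to 15.2% in the farthest. By scaled summit it is 21.6%, 27.0% and 24.8% in the classes up to 5 kb and 6.56% to 8.93% beyond.

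Kept peaks beside a gain rose more often than kept peaks far from one. Among 851 pairs with a gain under 200 bp away, 6.11% (4.60 to 7.94) had a summit at least 2-fold higher, against 4.71% (4.30 to 5.16) of 9589 pairs at 1 to 5 kb, 2.97% (2.78 to 3.17) of 29950 at 10 to 50 kb and 0.734% (0.525 to 0.998) of 5452 at 100 kb or more. The overall share was 3.37%. By fold, for which the overall share was 0.905%, there was no steady order, with 1.29% (0.647 to 2.30) under 200 bp, 0.626% (0.478 to 0.805) at 1 to 5 kb, 1.29% (1.10 to 1.51) at 5 to 10 kb and 0.422% (0.268 to 0.632) at 100 kb or more. The local background rose with the summits within 5 kb of a gain, by a median of 1.06 to 1.08 times, against 1.000 at 10 kb or more. The day 0 scaled summits also differed, with medians of 8.51 in the nearest class and 6.62 in the farthest, and the part of either was not tested. The median log2 summit change was 0.16 under 200 bp and 0.07, the size of the scaling, at 100 kb or more. Of 4635 day 0 peaks with a gain within 1 kb, 18.6% (17.5 to 19.8) were lost, against 12.7% (12.4 to 12.9) of the 76109 others. Their median folds were 3.24 and 3.81. At folds under 3 a difference remained, 32.0% (29.9 to 34.2) against 26.7% (26.1 to 27.3). At folds of 3 to 4 the shares were 19.1% (17 to 21.4) and 18.4% (17.9 to 19).

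Gains were next to other gains more often than kept peaks were. The nearest day 1 neighbour was itself a gain for 46.4% (45.9 to 46.9) of gains and for 31.0% (30.7 to 31.4) of kept day 1 peaks, while gains are 36.6% of the list. The median gap to that neighbour was 4788 and 4522 bp. The difference was wider at strong peaks, 59.5% (57.5 to 61.4) of strong gains against 35.5% (34.8 to 36.2) of strong kept peaks, and it was present at folds of 3 to 4, 49.1% against 30.8%. 

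Measured from gain to gain, the median gap was 10678 bp, and 47.9% (47.4 to 48.4) had another gain within 10 kb. Kept peaks, which are more numerous, had a median gap of 6332 bp. Close successive gains were closer than close kept peaks: of 3092 successive gain summits under 2 kb apart 56.3% were under 1 kb, with the most from 400 to under 600 bp (604), and of 7204 successive kept summits under 2 kb apart 31.1% were under 1 kb, with the most from 1000 to under 1200 bp (1128). Gains are narrower, 335 against 577 bp in the median, and the part of width in this was not tested.

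Joining gains no more than 10 kb apart gave 28709 chains. Of these 20958 were single gains, 2461 held at least 3 and 293 at least 5. The longest, of 11 gains over 48.5 kb, was chromosome 1, 211775433 to 211823894, where 4 day 0 peaks lay among the gains and the folds were 2.22 to 4.77. Chains of 10 lay at chromosome 4, 25613796 to 25656707, chromosome 15, 52137422 to 52177824, and chromosome 13, 97907175 to 97933070. Of 3 chains of 9 gains, the one of highest summed fold lay at chromosome 8, 96202573 to 96238347. All 4 spans held 0 day 0 peaks. Their highest folds were 3.85 to 6.03, so only the chain on chromosome 8 reached the limit for a strong gain. The number of their gains called on both later days was 5, 2, 7 and 5.

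Of the 40217 gains, 49.0% (48.5 to 49.5) were called on both day 3 and day 7, 21.5% on day 3 only, 5.12% on day 7 only and 24.3% (23.9 to 24.7) on neither. Of kept day 1 peaks 88.5% were called on both. Lasting went with strength. On both later days were 26.6% (25.4 to 27.8) of gains with a fold under 2.5, 54.3% (53.1 to 55.6) at 3.5 to 4, 76.7% (75.5 to 77.9) at 4 to 5, 95.8% (94.8 to 96.7) at 6 to 8 and 99.2% (98.1 to 99.7) at 8 or more. Kept peaks of the same fold lasted more often, with 67.9%, 83.1%, 93.5%, 99.9% and 100% in these classes. Equal fold is not equal reads, since the median local background was 2.35 times the genome-wide value at kept peaks and 1.38 at gains. Kept peaks were also wider in the median, 577 against 335 bp, and by definition already called on day 0. The part of each was not tested. Width gave a like gradient, from 24.9% (24.2 to 25.5) of gains under 300 bp to 97.9% (96.7 to 98.7) of gains of 1000 bp or more.

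Every one of the 2558 strong gains was called on day 3, and 86 of them were not called on day 7. The strongest of these was chromosome 19, 21346375 to 21347122, with a day 1 fold of 9.06 and 72 reads, followed by chromosome 7, 84914657 to 84915298, at 8.38, chromosome 9, 119358969 to 119359497, at 8.32, chromosome 4, 66319133 to 66319786, at 8.23, and chromosome 8, 113393642 to 113394557, at 8.09. Gains seen on day 1 alone were weaker, with a highest fold of 5.54 at chromosome 8, 115535169 to 115535607, and next 5.40 at chromosome 2, 218701927 to 218702253, on 38 and 37 reads. Folds of 5.25, 5.25 and 5.19 followed on chromosomes 1, 13 and 9. Gains that were missing on day 3 and called on day 7 had folds of at most 5.82, at chromosome 4, 42819519 to 42819854, with 40 reads, and the next 4, on chromosomes 2, 19, 11 and 1, had 5.11 to 5.40.

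**Figure D4:**
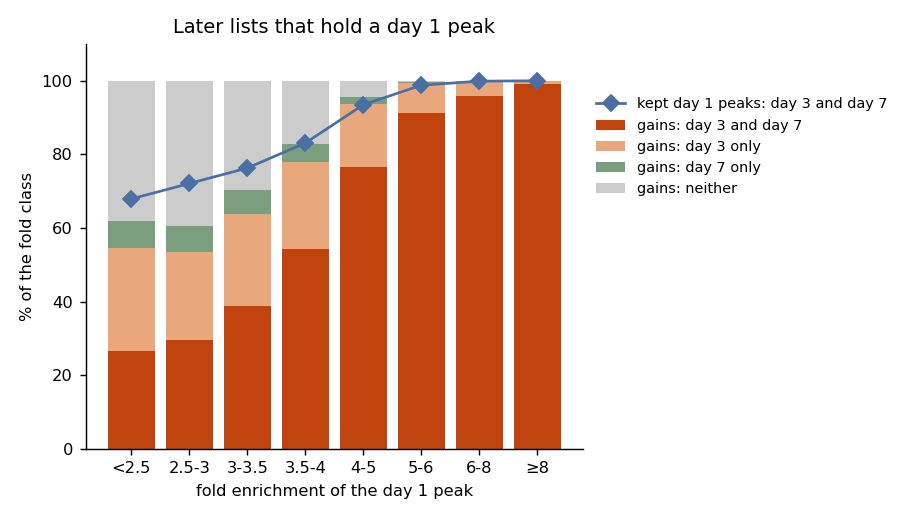
Percent of day 1 gains in each fold class that were called again on days 3 and 7, on 1 of these days or on neither (stacked bars), and the percent of kept day 1 peaks called on both days (diamonds). Lasting gains go from 26.6% at folds under 2.5 to 99.2% at folds of 8 or more, and kept peaks lie above the gains in every class. The fold classes do not match gains and kept peaks in reads or width.

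Far gains lasted more often than near ones, at 60% (57.8 to 62.2) for gaps of 50 to 100 kb and 35.7% (32.6 to 38.9) under 200 bp, but not at equal fold. In the same classes the shares were 28.9% (22.7 to 35.6) and 30.3% (26.8 to 34) at folds under 3. They were 41.6% (38.2 to 45) and 44.4% (37.5 to 51.5) at folds of 3 to 4, and 78.7% (75.1 to 82) and 81.8% (64.5 to 93) at folds of 4 to 6. These intervals overlap each time, but the near class held only 205 gains at folds of 3 to 4 and 33 at folds of 4 to 6. Gains at 200 bp to 1 kb had 30.4% (28.5 to 32.3) at folds under 3. At folds of 3 to 4 and of 4 to 6 they lasted more often than those at 50 to 100 kb, in 51.1% (47.7 to 54.4) and 87.3% (82.8 to 90.9). Equal fold does not match reads, with class medians over all folds of 44 reads at 200 bp to 1 kb and 28 at 50 to 100 kb. Lasting also went with reads, from 26.5% of gains with a scaled summit under 4 to 81.9% at 15 or more. The part of reads in the comparison at equal fold was not tested. Gains in chains of at least 3 lasted in 52.2% (51.2 to 53.3) of cases and single gains in 47.9% (47.2 to 48.6), at median folds of 3.13 to 3.24 in chains of 3 to 7 and 3.36 in single gains.

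Chromosomes differed in the share gained. It was highest on chromosome Y, 52.4% (44.6 to 60.1) of only 170 peaks, chromosome 13, 42.7% (40.7 to 44.6), and chromosome 4, 40.6% (39.3 to 42). It was lowest on chromosome 19, 21.5% of 4558 peaks, chromosome 17, 32.1% (30.9 to 33.4), and chromosome X, 32.8% (30.8 to 34.8). On chromosome 19 strong gains were 23, or 3.16% of its strong day 1 peaks, against 11.6% overall and 18.2% on chromosome 13. Lost peaks varied less, from 9.28% on chromosome X to 16% on chromosome Y.

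The share gained was also lower where day 0 peaks were dense. With 1 to 2 day 0 summits within 100 kb, 46.1% (45 to 47.3) of day 1 peaks were gained, with 6 to 10 it was 41.5% (40.9 to 42.1), and with 21 or more 22.7% (22.1 to 23.2). A kept peak usually counts its own day 0 summit here, so the scale is shifted by about 1 between the sets. Chromosome 19 is the densest, with a median of 23 day 0 summits within 100 kb of a day 1 peak, and chromosome 13 has 8. At 11 to 20 summits chromosome 19 had 25.9% (23.6 to 28.4) of 1320 peaks gained and the other chromosomes 35.8% (35.3 to 36.3). That is a difference of -9.88 percentage points against -15.8 without regard to density. The class of 21 or more summits held 2713 of the 4558 peaks of chromosome 19. There the difference was smaller, with 18.0% gained on chromosome 19 and 23.4% on the other chromosomes. The copy number of chromosomes in G401 was not examined.

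**Figure D5:**
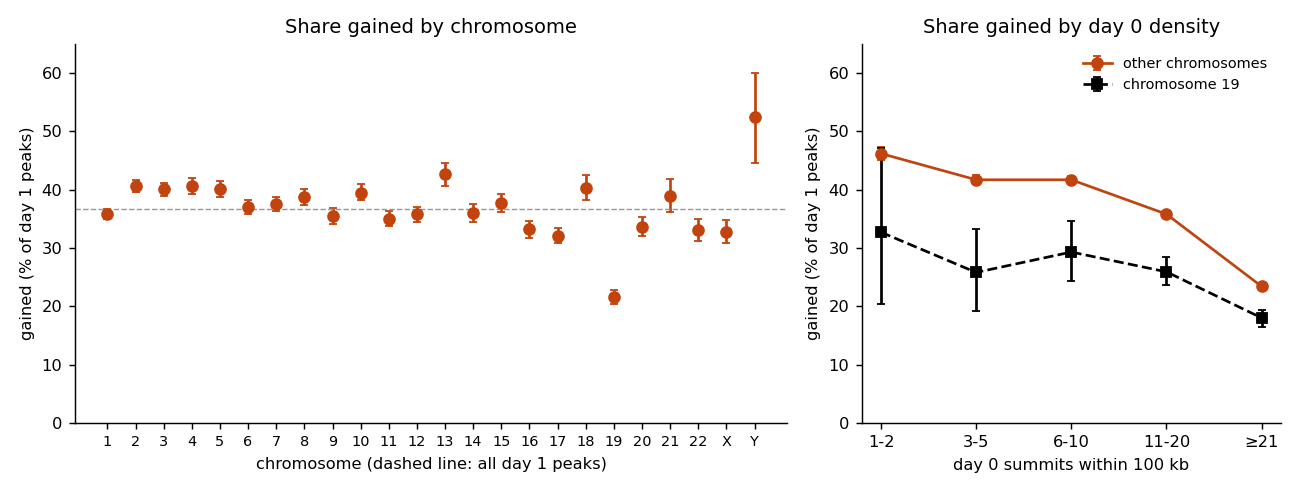
Left, percent of day 1 peaks gained on each chromosome with 95% binomial intervals and the overall 36.6% as a dashed line; right, percent gained by the number of day 0 summits within 100 kb, for chromosome 19 and for all other chromosomes. Chromosome 19 lies at 21.5%, below every other chromosome, and below them in each density class as well.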

How the data were processed

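One deposited file of narrowPeak layout, without a header, holds 4 peak lists. Per the submitters' processing notes, MACS2 version 2.1.1.20160309, Bowtie2, deepTools and the build hg19 were used, with no role stated. The sources used here do not state how replicates were pooled, how reads were filtered or whether cut sites were offset. A deposited score, which is the integer part of 10 times -log10 q at all but 155 peaks, was not used. The authors' own values per peak are the fold (a ratio), the -log10 of the p-value, the -log10 of the q-value and the summit offset.

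Summit reads were recovered from the authors' fold and -log10 p, reading the fold as reads plus 1 over background plus 1, and p as the upper Poisson tail beyond the summit reads. A whole number fitted every peak within 0.005 in -log10 p. The commonest background of a list was its genome-wide background. On simulated data 100.0% of 16749 peaks returned their reads, and all of 5000 regions their status. Gaps are bases between peak edges. Shares have exact Clopper-Pearson intervals, ratios of summit reads exact conditional binomial ones. Python 3.11.15, NumPy 2.4.6, pandas 2.3.3, SciPy 1.17.1 and matplotlib 3.10.9 were used.

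The peaks, limits and classes were chosen with earlier results of these data known. Named peaks follow a rule: the 10 gains of highest fold, the 5 highest among gains absent later, on day 3 alone or on day 7 alone, the 5 highest lost peaks, the 5 pairs with the most extreme ratios of summit, width or shift (the last 2 among strong pairs), the 5 longest chains, and the 3 highest and 3 lowest chromosomes. Alternatives were other overlap rules, limits and list lengths. No sequences are shown, since no hg19 genome was at hand.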

Additional observations from a re-analysis of the deposited data

How the results depend on the processing

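The intervals behind these comparisons are narrow, so 30 of 33 alternative values left them. A reciprocal overlap of 50%, summits within 200 bp and a -log10 q of at least 5 gave shares gained of 42.2%, 40.2% and 35.1%, lost of 21.4%, 18.6% and 11.1%, strong gained of 14.8%, 13.0% and 12.2%, and lasting of 39.6%, 42.4% and 50.8%. Day 1 cut to the length of the day 0 list gave 24.3% gained and 23.1% lost. Strong gained shares were 19.8% at a fold of 4 and 12.9% at a scaled summit of 10, and strong gains lasted in 96.6%. Setting every kept day 0 peak against its highest day 1 summit gave a median shift of 35 bp and log2 changes of 0.07 in width and 0.08 in summit. With a -log10 q of at least 5 on both days the shift was 30 bp and the width change 0.06, and by the authors' fold the height change was 0.06. In reads without scaling, added after the data were seen, it was 0.00. Strong gains had a median gap of 18262 bp and 1.72% within 1 kb, while 36.3% of all gains were within 5 kb. Another gain lay within 5 kb of 28.7%, within 20 kb of 68.7%, and within 10 kb of 17.8% of gains with a fold of 4 or more, counted among themselves.

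In comparisons added after the data were seen, 2 patterns turned round. The strong share beyond 50 kb less that within 1 kb was 14.7 percentage points by fold and -18.2 by scaled summit. The lasting share beyond 50 kb less that within 1 kb was 19.9 points over all gains, -0.859 at folds under 3 (29.6% and 30.4%), -7.68 at folds of 3 to 4 and -9.11 at folds of 4 to 6. These fold classes do not match near and far gains in reads. No paired analysis was possible because each day has 1 peak list with no replicate in it, and for the same reason no replicate could be left out. The 25th percentile of gains is 25 reads, and counting error at such depth limits what the gain or loss of a weak peak shows.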

Other observations

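Gains were spread over nearly the whole genome: 2567 of 2722 windows of 1 Mb with a peak held at least 1. Across the 1378 windows with at least 30 day 1 peaks, the share gained had a median of 38.0%, with 20.1% at the 5th and 57.5% at the 95th percentile. The windows named here were chosen after their values were seen. The window at chromosome 3, 60000001 to 61000000, held 1 day 0 peak, which was kept, and 30 day 1 peaks, of which 29 (96.7%) were gained. Their highest fold was 9.30, and 22 of the 29 were called on both day 3 and day 7. The next highest shares were 26 of 34 (76.5%) at chromosome 4, 91000001 to 92000000, and 28 of 37 (75.7%) at chromosome 7, 81000001 to 82000000, with 18 and 13 lasting. At the other end, the window at chromosome 7, 142000001 to 143000000, held 38 day 0 peaks, of which 1 was lost. There 3 of the 40 day 1 peaks (7.50%) were gained, 0 of them lasting. By number, the most gains in a window were 64 of 122 day 1 peaks (52.5%), at chromosome 20, 46000001 to 47000000, which held 67 day 0 peaks.

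By reads the tallest gains, also chosen after their values were seen, were other sites than those led by fold. Their local background was 3.26 to 7.43 times the genome-wide value, and their widths 709 to 1717 bp. At chromosome 4, 53791506 to 53792925, a gain of 1420 bp held 184 reads, or 30.4 times the genome-wide background, with a fold of 8.94. Chromosome 12, 52570862 to 52571570, held 178 reads at a fold of only 3.90, where the local background was 7.43 times the genome-wide value and a day 0 peak lay 779 bp away. The following sites, chromosome 2, 38659107 to 38660823, chromosome 1, 204592116 to 204593501, and chromosome 17, 70679499 to 70681001, held 174, 173 and 172 reads. All 5 were called on days 3 and 7.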
